A study of Homo sapiens with 6 samples.

Results

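The transcripts of 9 genes of the NRF2-KEAP1 system and of the glutathione and thioredoxin systems it serves were read with and without DAMTC in A549, a long-established line of human lung adenocarcinoma. They were NFE2L2, KEAP1, GCLC, GCLM, GSR, TXNRD1, SRXN1, NQO1 and HMOX1, taken by gene symbol from the platform annotation of an Illumina Human-6 bead array. The array names 18665 genes by 1 symbol, and these 9 were carried by 16 of the 48803 probes, and each probe was read by itself. The 3 control arrays held RNA of A549 cells labelled as control, and the sources used here name no vehicle for them. The 3 DAMTC arrays held RNA of A549 cells exposed for 24 h to 160 µg/ml of DAMTC, the code name under which the labels give the agent. The triplicates are described as biological, but no label says that each came from its own culture. The p-values therefore reflect the spread between arrays, which may be technical.

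NRF2, the product of NFE2L2, is a transcription factor that raises the genes for glutathione synthesis, thioredoxin recycling and the detoxification of quinones and heme. KEAP1 holds NRF2 in the cytoplasm and presents it to a CUL3 ubiquitin ligase for destruction, and electrophiles or oxidants that modify cysteines of KEAP1 let NRF2 escape. A549 is known for a loss-of-function mutation of KEAP1, by which NRF2 is already active in untreated cells. The arrays read transcript levels of whole cultures and not that mutation, the proteins or their activity. In such bulk RNA, fewer cells carrying a transcript and less of it per cell cannot be told apart.

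NRF2 binds the antioxidant response element together with a small MAF protein. Its core letters TGACNNNGC, N being any base, were searched on both strands of RefSeq promoter windows (build GRCh38.p14, 250 bases before to 50 after a start site). Windows were held for 7 of the 9 genes, 10 windows in all, and 4 of these, in 3 genes (KEAP1, GCLM and TXNRD1), held the core, against 13.3% of all 35116 windows of that length. The windows of GCLC and GCLM are shown because these genes encode the subunits of 1 enzyme and carried the only changes past the threshold. TXNRD1, whose probes did not pass, is listed with both of its start sites. Capitals mark the core, which on the opposite strand reads in reverse complement, and each window is given on the strand of its gene.
GCLM, chr1:93909381-93909680, minus strand: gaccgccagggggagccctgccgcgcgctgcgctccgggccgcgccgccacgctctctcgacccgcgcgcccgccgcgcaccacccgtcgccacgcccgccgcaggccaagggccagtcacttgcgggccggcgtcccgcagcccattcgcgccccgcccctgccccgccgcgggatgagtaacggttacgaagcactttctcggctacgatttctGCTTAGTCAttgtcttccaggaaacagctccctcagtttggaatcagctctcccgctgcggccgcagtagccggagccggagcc
GCLC, chr6:53545052-53545351, minus strand: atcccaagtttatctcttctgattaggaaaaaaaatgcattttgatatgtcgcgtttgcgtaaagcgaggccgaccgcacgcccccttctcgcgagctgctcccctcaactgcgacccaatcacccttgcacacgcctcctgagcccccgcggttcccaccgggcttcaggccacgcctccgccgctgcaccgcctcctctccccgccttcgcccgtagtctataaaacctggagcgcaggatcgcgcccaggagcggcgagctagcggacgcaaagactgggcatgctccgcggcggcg
TXNRD1, chr12:104215529-104215828, plus strand: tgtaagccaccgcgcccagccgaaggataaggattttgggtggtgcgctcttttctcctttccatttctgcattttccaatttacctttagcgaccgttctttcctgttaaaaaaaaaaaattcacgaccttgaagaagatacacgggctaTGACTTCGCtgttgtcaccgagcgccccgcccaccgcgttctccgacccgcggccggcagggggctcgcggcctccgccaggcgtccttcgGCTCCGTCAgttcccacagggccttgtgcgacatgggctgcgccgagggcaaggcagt
TXNRD1, chr12:104286782-104287081, plus strand: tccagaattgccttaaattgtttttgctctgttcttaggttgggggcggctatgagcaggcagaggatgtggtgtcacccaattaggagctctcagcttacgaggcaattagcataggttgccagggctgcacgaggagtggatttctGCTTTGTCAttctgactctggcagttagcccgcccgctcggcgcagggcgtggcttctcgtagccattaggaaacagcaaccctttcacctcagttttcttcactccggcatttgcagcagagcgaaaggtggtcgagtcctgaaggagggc
In GCLM the match began at base -34 from the start site, with the letters GCTTAGTCA on the gene's strand. The first TXNRD1 window held TGACTTCGC at base -99 and GCTCCGTCA at base -8, and the second held GCTTTGTCA at base -102. The window at the second KEAP1 start site, not printed here, held TGACACGGC at base -54 and GCTTAGTCA at base -31. The latter letters are those of the GCLM match. No match was found in these GCLC letters, which says nothing of NRF2 binding elsewhere. A match of letters is a description and not a binding site.

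The 6 arrays lay on 1 BeadChip, controls at one end and DAMTC at the other, and chip position cannot be told apart from treatment. Between 16329 and 17835 probes were detected per array (detection p under 0.05, the share of negative-control beads that were brighter). Control replicate 1 stood apart: over the tested probes it correlated at 0.931 and 0.947 with the other control arrays, which correlated at 0.976 with each other. The results that turn on it are therefore given with and without it. All 6 epithelial markers (KRT7, KRT8, KRT18, KRT19, CDH1 and EPCAM) were detected on all 6 arrays. Of 5 alveolar type 2 markers 0 were detected on all 6 arrays. PTPRC, CD3E, COL3A1 and VWF, markers of blood, connective tissue and vessels, were detected on none, COL1A1 was detected on 1 array and PECAM1, an endothelial marker, on all 6.

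With DAMTC, 2 of the 15 tested probes fell past the threshold, 1 of GCLM and 1 of GCLC, and 0 rose. At an unadjusted p under 0.05 the number was 6 of 15, all with a lower mean in DAMTC, where 36.3% of all tested probes passed that mark and 18.4% did so with a lower mean. The threshold was an adjusted p under 0.05 from limma, adjusted over all 17009 probes detected on at least 3 arrays. Over all tested probes 23.3% passed, 11.7% higher and 11.6% lower, against 2 of 15 member probes (13.3%), both lower. Whether the member share differs from these shares was not tested. The log2 difference, DAMTC minus control, was negative for 11 of the 15 probes and positive for 4, with a median of -0.47 against -0.01 over all tested probes. The groups did not overlap for 5 member probes, 4 with DAMTC below (20.1% of all tested probes did so) and 1 with DAMTC above (20.0% of all), together 5 of 15 against 40.1% of all tested probes. When 1 array was left out, between 0 (without DAMTC replicate 3) and 3 (without control replicate 1) of the 15 member probes passed. These were 0% and 20.0% of the members, where 13.2% and 31.7% of all probes passed. Over all probes the number passing was 3970, and 2234, 2225 and 2166 without DAMTC replicate 1, 2 and 3. With arrays scaled to the same median the median of all probes moved to -0.21, 30.6% of the calls were higher against 50.2%, and 3 of 15 member probes (20.0%) passed, all lower, against 26.3% of all probes, with a member median of -0.59.

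**Figure D1:**
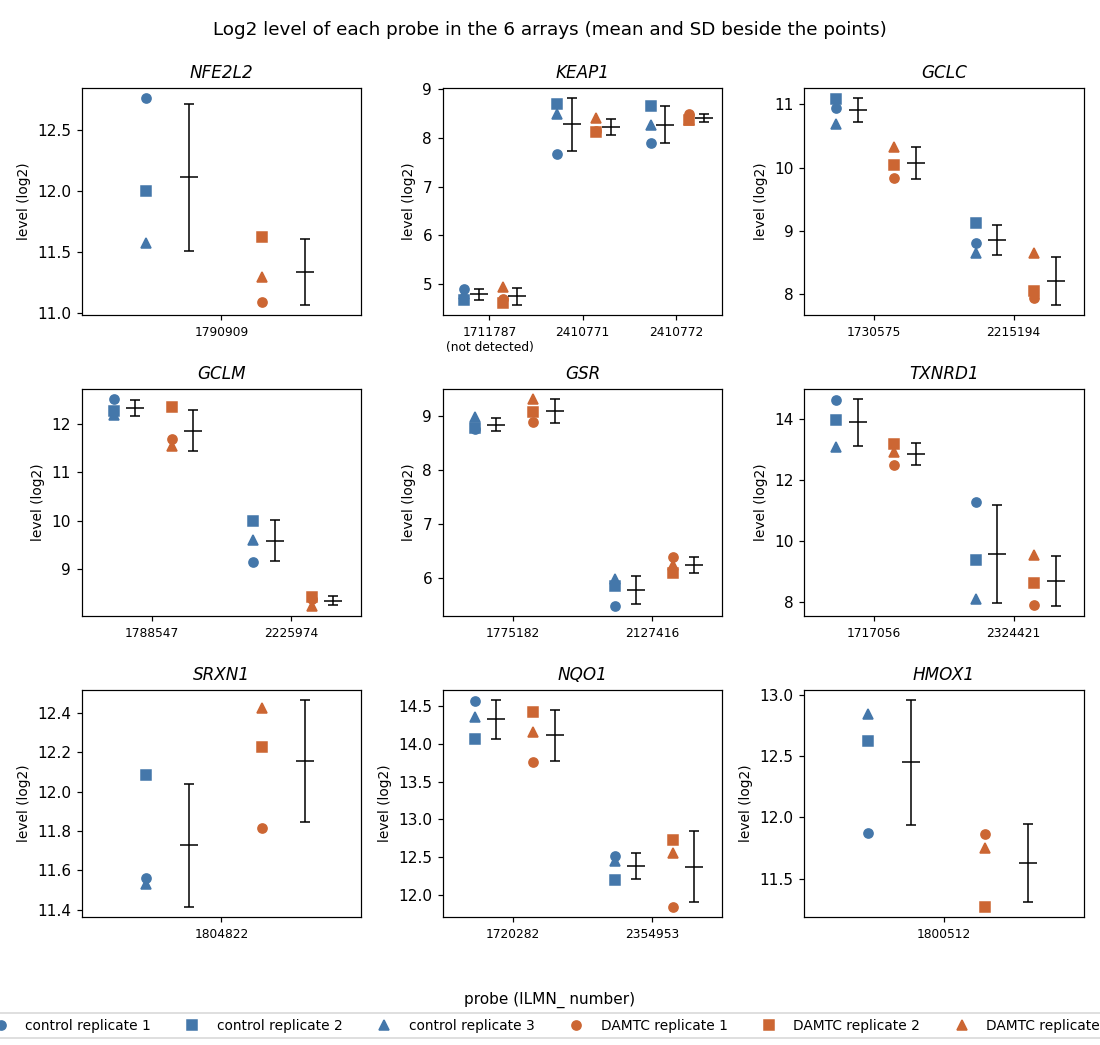
Log2 level (vertical axes, background-corrected and quantile-normalized intensity) of all 16 probes of the 9 genes, with 1 point per array, control in blue and DAMTC in orange, and the mean and SD beside them. Levels of different probes are not comparable with each other. Both GCLC probes, 1 GCLM probe (ILMN_2225974) and HMOX1 lie lower on all DAMTC arrays than on any control array.

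**Figure D2:**
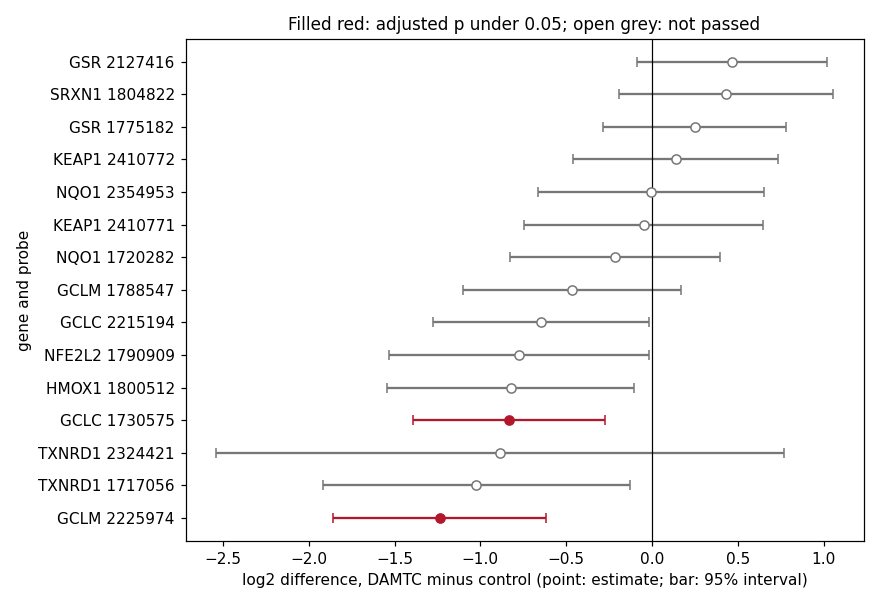
Log2 difference, DAMTC minus control (horizontal axis), of the 15 tested probes (vertical axis) with 95% intervals from limma. The filled points, GCLM ILMN_2225974 and GCLC ILMN_1730575, passed the threshold, while the estimates of the others run from -1.02 to 0.46.

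GCLC and GCLM encode the catalytic and the modifier subunit of glutamate-cysteine ligase, the rate-limiting enzyme of glutathione synthesis. The GCLC probe ILMN_1730575 had log2 levels of 10.94, 11.08 and 10.70 on control replicates 1 to 3 and of 9.84, 10.05 and 10.33 on DAMTC replicates 1 to 3. Every DAMTC array lay below every control array, and the probe fell 1.78-fold (log2 difference -0.83 ± 0.25 SE, n = 3 per group, limma adjusted p = 0.0393). The call was held without control replicate 1 (adjusted p = 0.0387) and lost without any 1 of the other 5 arrays, where adjusted p ran from 0.0604 to 0.147. The second GCLC probe, ILMN_2215194, read 8.81, 9.12 and 8.65 on the controls and 7.93, 8.06 and 8.65 with DAMTC. Its groups met almost at 8.65, where DAMTC replicate 3 lay just under control replicate 3. The difference was -0.65 ± 0.28 (adjusted p = 0.127). This probe passed in 1 of 16 alternatives, that with arrays scaled to the same median (adjusted p = 0.0286). There the median difference of all tested probes was -0.21. The highest adjusted p of this probe was 0.340, without DAMTC replicate 1.

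The GCLM probe ILMN_2225974 read 9.154, 9.998 and 9.611 on the controls and 8.38, 8.43 and 8.24 with DAMTC. The 3 DAMTC arrays lay close together (SD 0.10 against 0.42 in the controls) and below every control. The probe fell 2.36-fold (-1.24 ± 0.27, 95% interval -1.86 to -0.62, adjusted p = 0.0121), to -1.46 without control replicate 1 and -1.04 without control replicate 2. Without DAMTC replicate 3 the difference was -1.18 and the call was lost (adjusted p = 0.0592). The second GCLM probe, ILMN_1788547, is annotated to the same RefSeq transcript and read 12.52, 12.27 and 12.20 on the controls and 11.69, 12.35 and 11.55 with DAMTC. Here DAMTC replicate 2 lay among the controls, so the groups overlapped. Its difference was -0.47 ± 0.28 (adjusted p = 0.273), and -0.70 (adjusted p = 0.153) without DAMTC replicate 2. The GCLM probes thus shared a direction and differed in size, and their difference from each other was not tested.

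NFE2L2, the gene for NRF2, had log2 levels of 12.761, 11.996 and 11.576 on the controls and 11.09, 11.62 and 11.29 with DAMTC. Control replicate 1 was the highest array, and control replicate 3 lay inside the DAMTC range. The difference was -0.77 ± 0.33 (95% interval -1.53 to -0.02, adjusted p = 0.129), and -0.45 (adjusted p = 0.227) without control replicate 1. It passed in 0 of 17 alternatives, the lowest adjusted p being 0.0511 with median scaling. Over the 6 arrays the genes whose centred levels lay nearest to NFE2L2 were TCF12, PUM2 and LRPPRC. Their root-mean-square differences from it were 0.05, 0.09 and 0.09 log2 units, against a median of 0.70 over 10778 genes. Since the nearest genes were picked as the smallest differences, here and for KEAP1 and HMOX1, lying under the median follows from the choice.

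KEAP1, the NRF2 adaptor of the CUL3 ligase, had 3 probes. ILMN_2410771 read 7.66, 8.69 and 8.49 on the controls and 8.15, 8.13 and 8.41 with DAMTC, a difference of -0.05 ± 0.31 (adjusted p = 0.928). ILMN_2410772 read 7.90, 8.66 and 8.27 on the controls and 8.50, 8.37 and 8.38 with DAMTC, a difference of 0.14 ± 0.26 (adjusted p = 0.755). On both probes control replicate 1 was the lowest array and the DAMTC arrays lay within the control range. The 95% intervals were -0.75 to 0.65 and -0.46 to 0.73, so changes of smaller size in either direction are not excluded at 3 arrays per group. The sign turned with 1 array left out, the first probe reading 0.15 without control replicate 2 and the second -0.05 without control replicate 1. With median scaling the second probe read -0.20, where the median difference of all tested probes was -0.21. The remaining probe, ILMN_1711787, annotated to another KEAP1 transcript, was not detected on any array (detection p from 0.242 to 0.926) and was not tested. The genes nearest to KEAP1 over the 6 arrays were METTL22, DHRS7 and RPL27, with root-mean-square differences of 0.05, 0.06 and 0.07 against a median of 0.52.

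TXNRD1 encodes the cytosolic thioredoxin reductase, a selenoprotein that returns thioredoxin to its reduced form with NADPH. Its bright probe, ILMN_1717056, read 14.62, 13.95 and 13.08 on the controls and 12.48, 13.20 and 12.91 with DAMTC. DAMTC replicate 2 lay just above control replicate 3, so the groups overlapped at that point. The difference was -1.02 ± 0.39 (95% interval -1.92 to -0.13, adjusted p = 0.0943). It was -0.67 (adjusted p = 0.159) without control replicate 1 and passed without control replicate 3 (-1.44, adjusted p = 0.0294). ILMN_2324421, annotated to another TXNRD1 transcript, spread widely within the controls at 11.27, 9.39 and 8.09, against 7.91, 8.62 and 9.56 with DAMTC. Its SD of 1.60 in the controls was the largest among the 16 probes. The difference of -0.89 ± 0.73 (adjusted p = 0.434) came to -0.04 (adjusted p = 0.960) without control replicate 1. It was -1.64 (adjusted p = 0.121) without control replicate 3 and -0.49 (adjusted p = 0.739) without DAMTC replicate 1. Its size thus depended on which array was left out.

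GSR encodes glutathione reductase, which regenerates reduced glutathione with NADPH. ILMN_1775182 read 8.77, 8.79 and 8.98 on the controls and 8.89, 9.08 and 9.32 with DAMTC. The groups overlapped, since control replicate 3 lay above DAMTC replicate 1. The difference was 0.25 ± 0.24 (adjusted p = 0.501) and turned to -0.07 with median scaling, where the median difference of all tested probes was -0.21. ILMN_2127416 read 5.49, 5.86 and 5.99 on the controls and 6.38, 6.10 and 6.24 with DAMTC. All DAMTC arrays of this second probe lay above all controls, by 0.46 ± 0.24 on average (adjusted p = 0.208), at levels not far above background (detection p from 0.00791 to 0.0237).

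SRXN1 encodes sulfiredoxin, which repairs overoxidized peroxiredoxins. Its probe read 11.56, 12.09 and 11.53 on the controls and 11.82, 12.23 and 12.43 with DAMTC, with control replicate 2 inside the DAMTC range. The difference was 0.43 ± 0.27 (95% interval -0.19 to 1.05, adjusted p = 0.305), and it was positive in all 17 alternatives and passed in 0 of them.

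NQO1 encodes a quinone reductase and is one of the most used readouts of NRF2 activity. ILMN_1720282 read 14.57, 14.06 and 14.35 on the controls and 13.75, 14.42 and 14.16 with DAMTC, a difference of -0.21 ± 0.27 (adjusted p = 0.624). ILMN_2354953 read 12.51, 12.19 and 12.45 on the controls and 11.84, 12.73 and 12.56 with DAMTC, a difference of -0.01 ± 0.29 (adjusted p = 0.990). On both probes DAMTC replicate 1 was the lowest of the 6 arrays and the groups overlapped. The 95% intervals were -0.83 to 0.40 and -0.66 to 0.65. A fall as large as the estimate of the GCLM probe that passed (-1.24) lies outside both. The estimate of the other GCLM probe (-0.47) lies inside both. Smaller changes of NQO1 are not excluded, and whether NQO1 and GCLM differ was not tested. The sign of the second NQO1 probe turned in 4 of 16 alternatives, to 0.26 without DAMTC replicate 1.

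HMOX1 encodes heme oxygenase, which breaks down heme and is induced by NRF2 once the repressor BACH1 leaves its regulatory elements. Its probe read 11.88, 12.63 and 12.85 on the controls and 11.86, 11.27 and 11.75 with DAMTC. DAMTC lay below every control array, though control replicate 1 and DAMTC replicate 1 were almost level. The difference was -0.82 ± 0.32 (95% interval -1.54 to -0.11) and did not pass (adjusted p = 0.0940). Without control replicate 1 it was -1.13 and passed (adjusted p = 0.0116). It was -0.63 (adjusted p = 0.263) without control replicate 3 and -0.64 (adjusted p = 0.287) without DAMTC replicate 2. HMOX1 passed in 2 of 17 alternatives. The genes nearest to HMOX1 over the 6 arrays were STX1A, COASY and STRADA, with root-mean-square differences of 0.06, 0.06 and 0.08 against a median of 0.67.

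**Figure D3:**
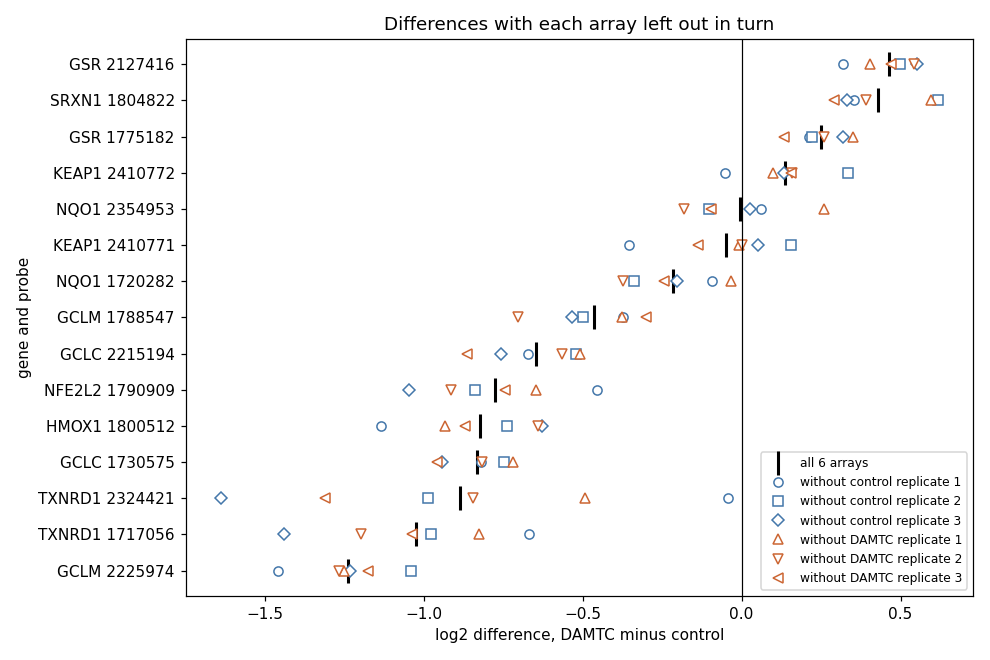
Log2 difference, DAMTC minus control (horizontal axis), of the 15 tested probes (vertical axis) with all 6 arrays (bar) and with each array left out (open symbols, blue for a control array and orange for a DAMTC array). Control replicate 1 moves NFE2L2 and both TXNRD1 probes toward 0 when left out and HMOX1 and GCLM ILMN_2225974 away from it, and the differences of GCLC, GCLM, NFE2L2, TXNRD1 and HMOX1 stay below 0 in every fit with 1 array left out.

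Around these genes, 84 other genes of the pathway were listed in 6 groups by role, 77 of them on the array and 67 tested, each by its probe of highest mean level. Of the 67, 5 rose and 5 fell, 14.9% against 25.1% of all 10779 genes read in this way (12.2% higher, 12.9% lower), and their median difference was 0.07 against -0.04 over all genes. The count of called list genes went from 10 to 16 (23.9%) when control replicate 1 was left out and to 5 (7.46%) when DAMTC replicate 1 was, where 31.7% and 13.7% of all probes were called. With median scaling 17 list genes (25.4%) were called, 5 higher and 12 lower, against 26.3% of all probes, of whose calls 30.6% were higher. Among 10 tested ligase members and NRF2 partners by 1 probe a gene only MAFF, a small MAF protein that pairs with NRF2 or with BACH1, passed, with a median of 0.50 over the list. MAFF rose 7.83-fold (2.97 ± 0.29, adjusted p = 3.99e-04), a second probe rose (2.16, adjusted p = 0.00122) and another fell (-1.50, adjusted p = 0.00418), so the MAFF probes disagree. A second probe of BACH2, a relative of BACH1, passed (0.93, adjusted p = 0.0217) while its chosen probe did not (0.54). CUL3 and BACH1 were on the array but not detected on enough arrays to be tested.

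Of 25 tested genes of glutathione synthesis, use and recycling, 2 fell and 2 rose by their chosen probes, with a median of 0.11. Several of the called genes are dim, and their size depends on the background correction, so each is given also without correction and with the deposited values. SLC7A11, the cystine transporter that supplies cysteine for glutathione, fell (-2.22 ± 0.29, adjusted p = 0.00119) and passed in all 17 alternatives, with -1.23 without background correction and -2.53 with the deposited values. OPLAH, which opens 5-oxoproline to glutamate, had a lower level (-1.62 ± 0.50, adjusted p = 0.0469), but was detected on 1 of 3 DAMTC arrays, with a DAMTC mean below the lowest detected signals, so that no exact fold is given. It read -0.72 without background correction and -2.01 with the deposited values, and passed in 6 of 15 alternatives. Of the fits with 1 array left out, only that without control replicate 1 kept the OPLAH call (-2.18, adjusted p = 0.00234). GPX3, a secreted glutathione peroxidase, rose (1.92 ± 0.49, adjusted p = 0.0226), with 1.09 without background correction and 2.30 with the deposited values. GPX3 was detected on 2 of 3 control arrays. It did not pass without DAMTC replicate 1, 2 or 3 (adjusted p = 0.0791, 0.0704 and 0.0613) or without the detection filter (adjusted p = 0.0981). Without control replicate 2 it read 1.28. GSTM3, a glutathione transferase, rose (1.75 ± 0.32, adjusted p = 0.00505), its control signal passing detection on 1 of 3 arrays with a mean below the lowest detected signals, so that no exact fold is given. GSTM3 read 0.69 without background correction and 2.39 with the deposited values. A second probe of MGST1, a microsomal glutathione transferase, fell (-0.90, adjusted p = 0.0386), while its chosen probe read -0.51 and another -0.97, neither past the threshold.

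Of 14 tested genes in the thioredoxin and peroxiredoxin list, 2 rose, 0 fell and 12 did not pass by their chosen probes. The median was 0.09, and the list also holds sestrins and methionine sulfoxide reductases. Both that rose were sestrins, stress-induced regulators of redox and growth signalling: SESN1 rose 3.23-fold (1.69 ± 0.27, adjusted p = 0.00283) and SESN3 by a log2 difference of 3.02 ± 0.25 (adjusted p = 2.05e-04). SESN3 was detected on 2 of 3 control arrays with a control mean near the lowest detected signals, and read 1.49 without background correction and 3.79 with the deposited values. A second probe of MSRB3, a methionine sulfoxide reductase, rose (1.36, adjusted p = 0.00738), while its chosen probe read -0.40 and another -0.03, neither past the threshold. Of 8 tested genes of NADPH supply 2 fell and 0 rose, with a median of -0.41. They were NNT, the mitochondrial transhydrogenase (-1.51 ± 0.33, adjusted p = 0.0119; further probes -1.74 and -1.46), and NADK, the NAD kinase (-1.11 ± 0.26, adjusted p = 0.0163; -0.53 without background correction). Without DAMTC replicate 1 neither passed (adjusted p = 0.0541 and 0.0718). Of 7 tested genes of heme and quinone handling, UGDH, which makes UDP-glucuronate, fell 2.39-fold (-1.26 ± 0.28, adjusted p = 0.0137) but did not pass without DAMTC replicate 1 or 3 (adjusted p = 0.0603 and 0.0666), and the other 6 did not pass. Of SOD1, SOD2 and CAT 0 passed. CAT, catalase, had the smallest p (0.61 ± 0.28, adjusted p = 0.146), while a second CAT probe read 1.09 (adjusted p = 0.0369).

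**Figure D4:**
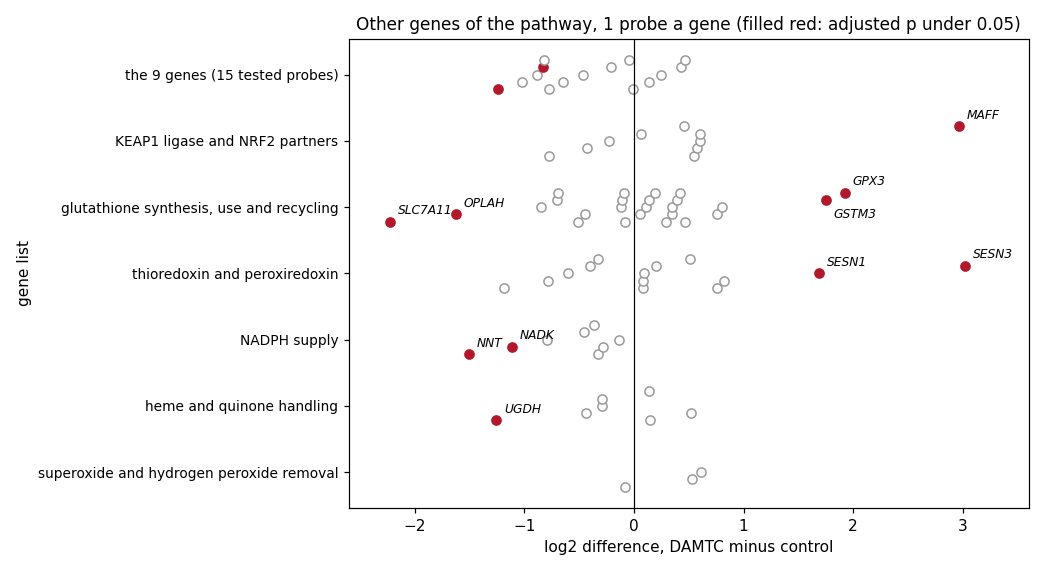
Log2 difference, DAMTC minus control (horizontal axis), of the 15 tested probes of the 9 genes and of the 67 tested genes of 6 pathway lists (rows, 1 probe a gene, 1 point each). Filled points passed the threshold: 5 list genes lie above 0 and 5 below. The places of dim genes such as SESN3, GSTM3 and OPLAH depend on the background correction.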

How the data were processed

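A549 RNA was labelled and hybridised to Illumina Human-6 bead arrays, 3 control and 3 DAMTC, grouped by sample title. Per the file headers, the deposited bead table holds mean bead intensity values, neither background-subtracted nor scaled, detection p-values in steps of 1/759, bead counts and bead standard errors. Per the submitters' processing notes the software was BeadStudio (no version named). The intensity values of the deposited series matrix were a straight line of the bead intensities in each array (largest residual 0.0107, means 461.96 to 462.07), so that scale and direction are known. Their column medians were 10.94, 9.34 and 8.59 for controls 1 to 3 and 8.99, 8.70 and 9.17 for DAMTC 1 to 3.

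Background was removed with the nec function (limma 3.58.1, R 4.3.3; background from the detection p-values, offset 16), followed by quantile normalization and log2. A probe ID on a pair of rows was averaged. The platform annotation gave 27578 of the 48803 probes 1 symbol, 13 several and 21212 none. Entrez IDs of 27541 were found in the RefSeq table. Probes detected at p under 0.05 on at least 3 arrays (17009) entered 1 fit with lmFit and eBayes, without a block, with Benjamini-Hochberg adjustment over all of them. The number of arrays limits the precision, and each member probe was read from 23 to 58 beads. Quantile normalization and the fit were run on simulated data with independent noise in each probe. Background correction and the detection filter were not part of that run. The members, lists and tests were chosen with earlier results of these data known. Named were all member probes, up to 4 genes past the threshold per list by size (else the smallest p), and the 3 nearest genes of NFE2L2, KEAP1 and HMOX1. Alternatives covered background, scaling, the deposited values, detection filter, 1 probe per gene, variance moderation, array weights, a replicate block and each array left out (detected on at least 3 of the arrays left).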

Additional observations from a re-analysis of the deposited data

How the results depend on the processing

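The number of member probes past the threshold was 2 in the main setting (13.3%) and 0 to 3 (0% to 20.0%) with 1 array left out. It was 1 with the deposited values (6.67%), with 1 probe per gene (11.1% of 9 probes) and with the replicate number as a block (6.67%). Over all probes it was 3970 (23.3%), 6841 (40.2%) with array weights, 2339 (13.8%) with the replicate block and 2166 to 5116 (13.2% to 31.7%) with 1 array left out. The share of all probes was 23.1% with the deposited values and 24.9% with 1 probe per gene. For the lists, whose alternatives were applied after seeing the data, the number was 10 (14.9%). With median scaling it was 17 (25.4% against 26.3% of all probes). With detection on all 6 arrays (fewer genes tested) it was 6 (10.2% against 23.0%), and with array weights 24 (35.8% against 40.2%). With 1 array left out it ran from 5 (7.46% against 13.7%) to 16 (23.9% against 31.7%). Deviations of same-numbered arrays from their group means correlated at -0.43, -0.42 and -0.20, and 0 arrays correlated best with their own number. With 3 arrays per group such deviations sum to 0 within a group. They therefore cannot decide whether same-numbered arrays were paired. Under the block GCLC ILMN_1730575 had adjusted p = 0.133 and GCLM ILMN_2225974 adjusted p = 0.0436. Signs turned, the cause not tested, for KEAP1 ILMN_2410771 (-0.36 to 0.15 with 1 array left out), KEAP1 ILMN_2410772 (-0.051 to 0.33 with 1 array left out), TXNRD1 ILMN_2324421 (0.36 with array weights) and NQO1 ILMN_2354953 (0.034 with array weights, -0.18 to 0.26 with 1 array left out). With median scaling KEAP1 ILMN_2410772 read -0.20 and GSR ILMN_1775182 -0.066, where the median difference of all probes was -0.21. GCLC ILMN_1730575 was also lost with the deposited values (adjusted p = 0.0609), and HMOX1 passed with array weights (-1.14, adjusted p = 0.00311). KEAP1 ILMN_1711787 gave no signal above background, and GSR ILMN_2127416 lay close to it.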
